A study of Mus musculus with 2 samples.

Results

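Neutrophil granule genes encode the enzymes and antimicrobial proteins that neutrophils pack into vesicles while they mature. The 9 genes are Elane, Prtn3, Mpo and Ctsg of the primary granules, Camp, Ltf, Ngp and Lcn2 of the specific granules, and Mmp8. Setting Mmp8 apart as a late gene was a choice made for this description and not a result. They are 9 of the 31055 features in the deposited count matrices. Their transcripts were followed in cell barcodes chosen by a fixed rule in the day-3 library: calprotectin (S100a8 plus S100a9) at 50 or more per 10000 unique molecular identifiers (UMIs), or the 4 primary granule genes together at 10 or more per 10000. The rule took 1187 of 16332 barcodes, or 7.27% (exact Clopper-Pearson 95% interval 6.87 to 7.68), and the remaining 15145 barcodes gave the background.

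The series profiled periosteum, the membrane around bone, from Prx1Cre;mTmG mice by droplet single-cell RNA sequencing. In these mice Cre, driven by a limb mesenchyme enhancer of Prx1, switches a cell from tdTomato to EGFP. There was 1 library at day 0 (no injury, 4573 barcodes) and 1 at day 3 after fracture of the tibia (16332 barcodes). The cells came out of explants, and the labels mention both growth to near confluence and use without expansion. Mouse age and number are not given in the sources used here. With 1 library per condition no test between conditions or classes was possible, so each value carries an interval for counting error only, and cells were not treated as replicates.

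Neutrophils are made in the bone marrow, and their granules are filled in an order that follows transcription. Promyelocytes make the serine proteases and myeloperoxidase of the primary (azurophil) granules. Myelocytes and metamyelocytes, which leave the cell cycle at about this point, make the specific granule proteins, and band cells make gelatinase granules, while calprotectin fills the cytosol. Monocyte precursors share the early part of this programme.

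Each member was present in the RefSeq promoter table (GRCm38.p6), which gave 250 bases before the start of all 9. The sequences are shown because the primary and specific granule genes differed in the letters found there. The stretch before the first base of any GENCODE exon is printed 5′ to 3′, and capitals mark AGGAAGT, a core of the ETS type bound by factors such as PU.1, or TTGCNNAA, a C/EBP-type core, on either strand. The ETS-type motif was picked after the sequences had been read, and no matches overlap.
Elane, chr10:79886062-79886246, plus strand: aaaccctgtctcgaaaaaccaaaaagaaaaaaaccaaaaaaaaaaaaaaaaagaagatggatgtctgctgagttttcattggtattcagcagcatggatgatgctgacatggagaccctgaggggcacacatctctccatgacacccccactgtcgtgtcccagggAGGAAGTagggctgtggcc
Prtn3, chr10:79879417-79879613, plus strand: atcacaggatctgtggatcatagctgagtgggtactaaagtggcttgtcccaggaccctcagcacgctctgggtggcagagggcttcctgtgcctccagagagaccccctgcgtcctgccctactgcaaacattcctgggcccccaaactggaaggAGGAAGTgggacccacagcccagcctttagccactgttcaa
Mpo, chr11:87793534-87793580, plus strand: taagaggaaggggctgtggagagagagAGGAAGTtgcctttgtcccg
Ctsg, chr14:56102575-56102824, minus strand: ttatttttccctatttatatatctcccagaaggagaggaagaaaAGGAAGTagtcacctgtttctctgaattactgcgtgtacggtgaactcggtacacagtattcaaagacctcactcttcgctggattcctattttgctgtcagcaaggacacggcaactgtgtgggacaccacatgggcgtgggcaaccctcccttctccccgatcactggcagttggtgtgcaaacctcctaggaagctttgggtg
Ltf, chr9:111019042-111019270, plus strand: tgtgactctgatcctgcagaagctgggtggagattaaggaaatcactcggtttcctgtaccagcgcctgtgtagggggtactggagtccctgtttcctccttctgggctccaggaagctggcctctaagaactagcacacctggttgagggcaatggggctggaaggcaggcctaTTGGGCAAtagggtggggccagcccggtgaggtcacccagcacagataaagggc
Ngp, chr9:110419558-110419746, plus strand: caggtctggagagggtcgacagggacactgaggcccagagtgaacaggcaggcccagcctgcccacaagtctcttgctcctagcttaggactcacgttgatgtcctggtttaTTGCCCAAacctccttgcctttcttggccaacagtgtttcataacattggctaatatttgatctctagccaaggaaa
Mmp8, chr9:7558179-7558428, plus strand: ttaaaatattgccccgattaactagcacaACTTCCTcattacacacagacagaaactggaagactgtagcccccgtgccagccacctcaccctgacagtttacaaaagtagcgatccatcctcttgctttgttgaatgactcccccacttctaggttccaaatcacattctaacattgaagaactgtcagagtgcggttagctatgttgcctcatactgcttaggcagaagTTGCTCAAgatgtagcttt
AGGAAGT or its reverse complement lay in the 250 bases of 4 of 4 primary granule genes, 0 of 4 specific granule genes and Mmp8, against 7.69% of 32851 mouse promoter windows of that length. TTGCNNAA lay in 0 of 4 primary granule genes, in 3 of 4 specific granule genes (Ltf, Ngp and Lcn2, not Camp) and in Mmp8, against 9.56% of the windows. The Lcn2 window begins within an annotated exon of Lcn2, so none of it is printed. Its match lies inside the annotated gene and not upstream of it. The printed Prtn3 stretch (chr10:79879417-79879613) also lies inside the annotated gene (chr10:79874476-79883174). It precedes the RefSeq start used here and an exon, but not the annotated GENCODE start, so the Prtn3 matches are not upstream of the annotated gene. CAACNG, a Myb-type core, lay in Elane, Prtn3, Ctsg, Ngp and Lcn2, against 29.3% of windows. A match describes letters only, and binding was not measured. Prtn3 and Elane are neighbours on chromosome 10 with 3073 bases between the annotated genes. Camp, Ngp and Ltf share a stretch of chromosome 9, 570130 bases apart for Camp and Ngp and 596259 for Ngp and Ltf.

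The 1187 barcodes fell into 4 classes by the rule and by the sum of Camp, Ltf and Ngp. There were 245 with primary granule genes but no high calprotectin (primary-only), 287 with both (overlap), 490 with high calprotectin and Camp, Ltf and Ngp at 10 or more per 10000 (specific-high) and 165 with high calprotectin but less of these 3 genes (specific-low). Their median depths were 12843, 7852, 3101 and 4702 UMIs. The day-3 library as a whole had 227191961 UMIs with a median of 7030 per barcode, the uninjured library 94034112 with a median of 19366. In the uninjured library the same rule took 11 of 4573 barcodes, or 0.241% (0.120 to 0.430), namely 1, 3, 6 and 1 in the 4 classes. The 2 libraries shared 3 barcode names. Among the primary-only barcodes 39 passed on a single primary granule UMI, and all 39 had under 1000 UMIs.

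The 144 barcodes with calprotectin from 25 to 50 per 10000 held Prtn3 at 22.9 and Ngp at 0.955, and the 86 from 50 to 100 held 17.3 and 5.10. The 196 barcodes with primary granule genes from 5 to 10 per 10000 held Ngp at 49.5, and the 169 from 10 to 20 held it at 34.6. Within the calprotectin-high barcodes without primary genes, 7 lay from 5 to 10 per 10000 of Camp, Ltf and Ngp and 18 from 10 to 20, so few lay near that cut.

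The label of neutrophil held for part of these barcodes. Summed markers of neutrophils (Csf3r, Cxcr2, Retnlg and 7 others) stood at 21.2 per 10000 in specific-high, 12.1 in specific-low, 3.36 in overlap and 3.20 in primary-only barcodes. They stood at 7.55 in the other barcodes with macrophage markers, where only 2 of the 10 were found in at least 10% of barcodes, against 9 of 10 in specific-high barcodes. The sum was 54.7 in osteoclast-marker barcodes, of which Mmp9 alone made up 53.6, while Csf3r stood there at 0.0119 and in specific-high barcodes at 0.750. The 7 monocyte markers summed to 26.6, 38.6, 7.17 and 19.4 per 10000 in primary-only, overlap, specific-high and specific-low barcodes. The 9 listed markers of granulocyte-monocyte precursors summed to 6.94, 12.9, 6.23 and 0.919 in the same classes, against 0.132 in the macrophage-marker barcodes. Macrophage markers summed to between 3.88 and 10.0 per 10000 in the 4 classes, against 36.6 in the macrophage-marker barcodes. Mesenchymal markers summed to between 1.91 and 10.7, against 32.0 in the mesenchymal-marker barcodes. A barcode with 10 or more per 10000 of Ccr2, Csf1r, F13a1, Ms4a6c, Fcgr1 and Klf4 was counted as monocyte-marker-high. That held for 149 of 245 primary-only (60.8%), 109 of 287 overlap (38.0%), 36 of 490 specific-high (7.35%) and 79 of 165 specific-low barcodes (47.9%). The primary-only and specific-low barcodes are therefore named here by their rule and not as stages of the neutrophil.

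Other signs of mixed origin moved with the classes. Macrophage or mesenchymal markers reached 10 per 10000 in 37.6% of primary-only, 12.9% of overlap, 21.0% of specific-high and 47.9% of specific-low barcodes. EGFP, the mark of the Prx1 lineage named in the labels, had a UMI in 24.4% of the class barcodes and 23.1% of the macrophage-marker barcodes, against 90.7% of the mesenchymal-marker barcodes. Its level was 2.73 per 10000 in primary-only, 1.23 in overlap, 6.13 in specific-high and 6.22 in specific-low barcodes, against 0.608 in macrophage-marker and 16.4 in mesenchymal-marker barcodes. T-cell, B-cell and dendritic marker sums stayed at or under 0.156 per 10000 in all 4 classes, and the 3 erythroid markers had no UMI. Prg2, an eosinophil granule protein, had 547 UMIs in the primary-only barcodes, nearly all of them in 1 barcode. The part of these other markers in the granule gene values was not tested, except where values without the barcodes are given.

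**Figure D1:**
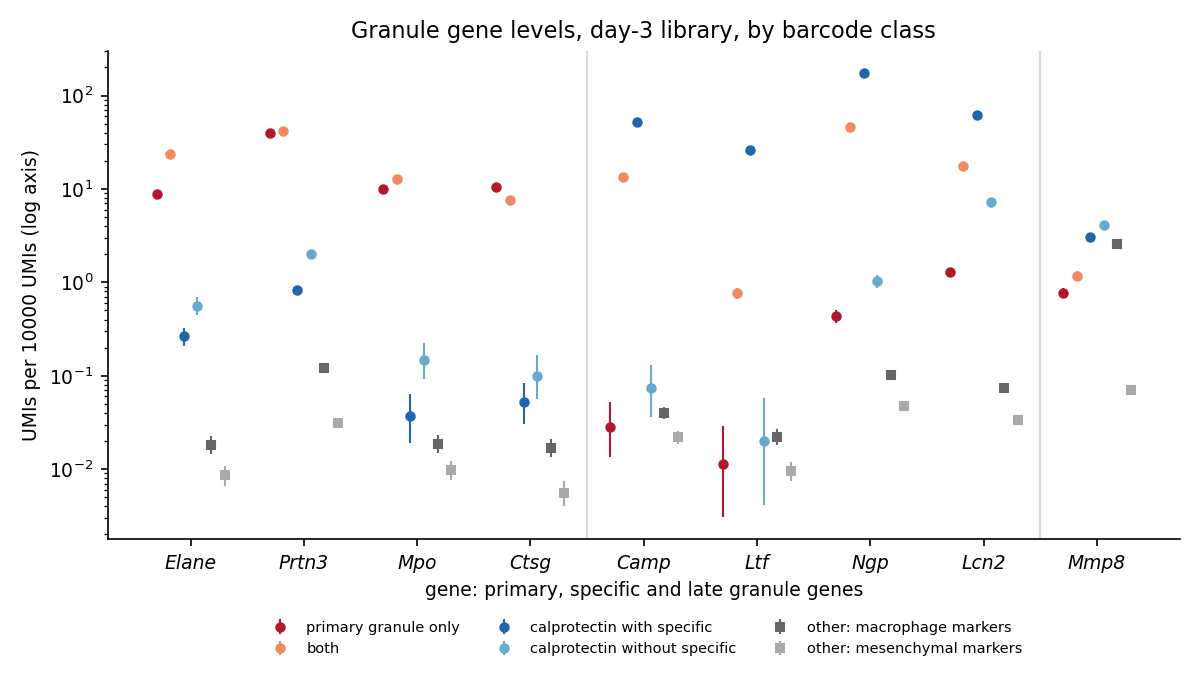
Levels of the 9 granule genes in the 4 barcode classes and in 2 kinds of other barcodes of the day-3 library, in UMIs per 10000 UMIs on a log axis, with exact Poisson 95% intervals. Primary granule genes sit highest in the primary-only and overlap classes, specific granule genes in the specific-high class, and Mmp8 in the macrophage-marker barcodes (2.58) lies within the range of its class levels (0.775 to 4.11). The legend's both, calprotectin with specific and calprotectin without specific are the overlap, specific-high and specific-low classes.

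The primary granule genes were the ones the rule used, so their levels are a description. Prtn3, which encodes proteinase 3 (ENSMUSG00000057729, chr10:79874476-79883174), had the most UMIs. The libraries read the 3′ end of each transcript, so UMI levels were not divided by transcript length. The Prtn3 level was 39.3 UMIs per 10000 in primary-only barcodes (exact Poisson 95% interval 38.7 to 40.0) and 41.4 in overlap barcodes (40.6 to 42.2). It was 0.821 in specific-high and 2.01 in specific-low barcodes. Prtn3 was also the leading primary gene barcode by barcode: among barcodes with at least 6 primary UMIs it led in 184 of 200 primary-only and 216 of 271 overlap barcodes.

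Elane, neutrophil elastase (ENSMUSG00000020125, chr10:79886247-79888215), was the primary gene tilted most towards the overlap class. It stood at 8.89 per 10000 in primary-only barcodes (8.59 to 9.21), 23.8 in overlap (23.2 to 24.4), 0.263 in specific-high and 0.560 in specific-low. Its share of all primary granule UMIs was 12.9% in primary-only and 27.7% in overlap barcodes. Elane led the other primary genes in 39 of 271 overlap barcodes but in 3 of 200 primary-only ones.

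Ctsg, cathepsin G (ENSMUSG00000040314, chr14:56099881-56102574), ran the other way. Its level was 10.6 per 10000 in primary-only (10.2 to 10.9) and 7.64 in overlap barcodes (7.31 to 7.97). Mpo, myeloperoxidase (ENSMUSG00000009350, chr11:87793581-87804413), was at 10.0 (9.67 to 10.3) and 12.9 (12.5 to 13.4). Neither was found beyond traces in the specific-high barcodes, with Ctsg at 0.0521 and Mpo at 0.0367 per 10000, or 17 and 12 UMIs in 490 barcodes. The rule kept the 4 primary genes together under 10 per 10000 in specific-high barcodes, so their low values there are a description. Prtn3 was the one most often found, with a UMI in 24.9% of specific-high barcodes (21.1 to 29.0). The shares were 8.37% for Elane, 2.65% for Ctsg and 1.43% for Mpo. In macrophage-marker barcodes of the same library, whose median depth was 5337 UMIs, these shares were 4.74%, 1.12%, 1.02% and 1.19%. The interval of the Mpo share in specific-high barcodes (0.576 to 2.92) overlapped that of the macrophage-marker barcodes (0.956 to 1.47), and that of Ctsg (1.42 to 4.49) lay above it (0.799 to 1.27), at a lower median depth of 3101.

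Specific granule genes followed a different order. Ngp, neutrophilic granule protein of the cathelicidin-related family (ENSMUSG00000032484, chr9:110419747-110423012), reached the highest level of the 9, 173 per 10000 in specific-high barcodes (172 to 174). It was at 46.0 in overlap and 0.435 in primary-only barcodes. Lcn2, lipocalin 2, which binds bacterial siderophores (ENSMUSG00000026822, chr2:32384633-32388252), was at 62.4 in specific-high, 17.8 in overlap, 7.29 in specific-low and 1.29 in primary-only barcodes. The specific-low class was defined by low Camp, Ltf and Ngp, so of the 4 specific genes only Lcn2 was free to be high there.

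Camp, cathelicidin (ENSMUSG00000038357, chr9:109847379-109849617), stood at 51.7 per 10000 in specific-high (50.9 to 52.5), 13.5 in overlap, 0.0733 in specific-low and 0.0283 in primary-only barcodes. Ltf, lactoferrin, an iron-binding protein (ENSMUSG00000032496, chr9:111019271-111042767), stood at 26.2 (25.7 to 26.8), 0.764, 0.0200 and 0.0113. Ltf was 34.3-fold higher (29.9 to 39.6) in specific-high than in overlap barcodes, against 3.83-fold for Camp, 3.76-fold for Ngp and 3.51-fold for Lcn2. Specific-high barcodes were chosen for Camp, Ltf and Ngp and overlap barcodes were not, so the choice raises these steps for those 3 genes. Camp, Ltf and Ngp helped to split the specific-high from the specific-low barcodes, so those 2 classes differ in them by construction. Pooled levels are weighted by deep barcodes: the median specific-high barcode held Ngp at 288, Lcn2 at 116, Ltf at 40.2 and Camp at 35.9 per 10000. The mean of the barcodes' own values was 300.02, 119, 53.9 and 80.4, from 1.55 to 2.06 times the pooled level. Without the barcodes that also carried macrophage or mesenchymal markers the pooled levels were 304 for Ngp, 113 for Lcn2, 46.3 for Ltf and 93.3 for Camp.

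The overlap class, chosen for calprotectin as well as for primary genes, held the 4 specific genes in unequal shares of barcodes. Among its 287 barcodes Lcn2 had a UMI in 96.5%, Ngp in 50.9% (44.9 to 56.8), Camp in 27.5% (22.4 to 33.1) and Ltf in 13.9% (10.1 to 18.5). Across the class barcodes Lcn2 had an r of 0.85 with S100a9 and from -0.50 to -0.36 with the primary genes. Those barcodes were chosen on calprotectin or the primary genes, so the rule enters these r values and they are a description. The sets were nearly nested. Of the 40 overlap barcodes with Ltf, 40 held Lcn2, 39 held Ngp and 35 held Camp, while of the 146 with Ngp, 72 held Camp and 39 held Ltf. Mpo thinned out along this series: it had a UMI in 83 of the 146 Ngp barcodes, 32 of the 79 Camp barcodes and 9 of the 40 Ltf barcodes. Prtn3 had one in 145, 78 and 39 of the same barcodes. A gene at a lower level is less often detected, so the order of detection partly follows the order of levels.

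Depth was evened out by thinning each barcode to 1000 UMIs, which left out 39, 4, 13 and 13 barcodes of the 4 classes. In the overlap class Lcn2 then had a UMI in 62.9% (57.0 to 68.5), Ngp in 41.3% (35.5 to 47.3), Camp in 16.6% (12.5 to 21.5) and Ltf in 4.59% (2.47 to 7.73), so the order was kept. In specific-high barcodes the thinned shares were 93.3%, 97.1%, 73.0% and 77.1%. Ltf and Camp were close there, where Camp had led in the overlap class. The mitosis list had at least 1 UMI in 72.3% (65.7 to 78.3) of thinned primary-only barcodes, 71.0% (65.4 to 76.2) of overlap, 35.0% (30.7 to 39.5) of specific-high and 26.3% (19.5 to 34.1) of specific-low barcodes. The corresponding share was 34.5% of macrophage-marker barcodes (59.5% unthinned), and unthinned shares were 85.3%, 88.5%, 50% and 47.3% in the 4 classes.

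**Figure D2:**
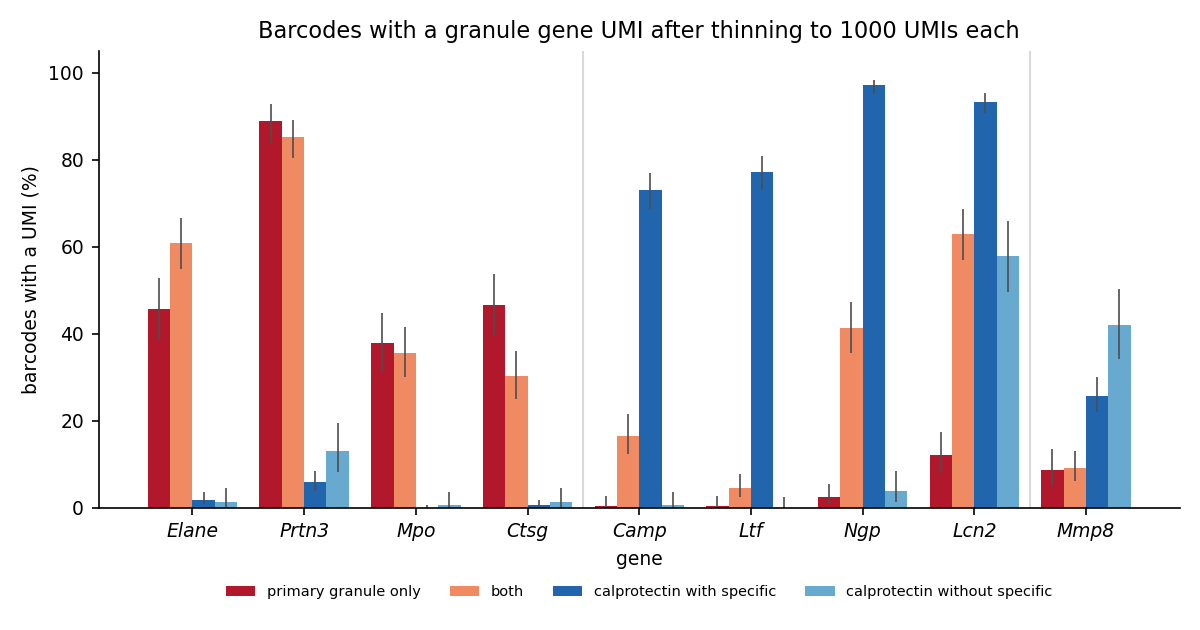
Percent of barcodes with a UMI of each granule gene after each barcode was thinned to 1000 UMIs, by class, with exact 95% intervals. In the overlap class the bars descend from Lcn2 (62.9%) through Ngp (41.3%) and Camp (16.6%) to Ltf (4.59%).

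The overlap class was split by the monocyte-marker cut of 10 per 10000, and whether it holds separate kinds of cell was not tested. Camp, Ltf and Ngp together reached 10 per 10000 in 113 of its 178 monocyte-marker-low barcodes, or 63.5% (56.0 to 70.6), but in 6 of its 109 monocyte-marker-high barcodes, or 5.50% (2.05 to 11.6). The median depth was 7046.5 UMIs in the first and 9998 in the second. In primary-only barcodes the counts were 8 of 96 and 0 of 149, which allows a share of up to 2.45% by the upper Clopper-Pearson limit.

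**Figure D3:**
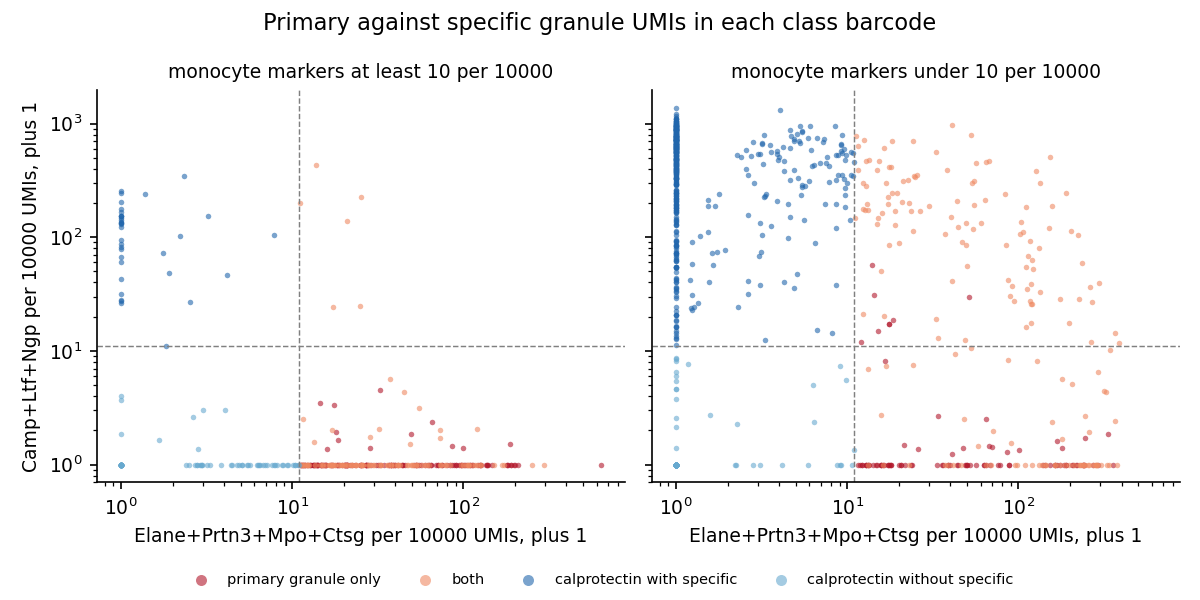
Each point is a class barcode of the day-3 library, with the 4 primary granule genes on the x axis and Camp, Ltf and Ngp on the y axis, in UMIs per 10000 plus 1 on log axes; dashed lines mark 10 per 10000. Monocyte-marker-high barcodes (left) lie mostly along the bottom, while monocyte-marker-low barcodes (right) run from high primary values through the overlap to high specific values.

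Gene by gene, the monocyte-marker-high overlap barcodes held less of nearly the whole set. Ngp was at 5.88 against 75.2 per 10000, a ratio of 0.0783 (exact conditional 95% interval 0.0723 to 0.0847), and Camp at 3.64 against 20.7, a ratio of 0.176 (0.159 to 0.195). Mpo was at 3.06 against 20.1, a ratio of 0.152 (0.136 to 0.170), and Elane at 10.3 against 33.5, a ratio of 0.308 (0.289 to 0.328). Prtn3 differed least, with 30.8 against 49.1 and a ratio of 0.628 (0.603 to 0.654). Mmp8 went the opposite way, at 2.59 against 0.142 per 10000, which is 18.3-fold higher (11.8 to 29.6) in the monocyte-marker-high barcodes. Without the barcodes that also carried macrophage or mesenchymal markers the Mmp8 difference was 42.3-fold. The barcodes on both sides of the split lay in 1 library, and the monocyte genes that made the split were not granule genes.

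The primary-only class repeated this with smaller steps. Mmp8 was 4.08-fold higher (2.98 to 5.69) in its monocyte-marker-high barcodes, and Mpo had a ratio of 0.485 (0.452 to 0.520), Elane 0.630 (0.586 to 0.676), Ctsg 0.760 (0.712 to 0.811) and Prtn3 0.824 (0.797 to 0.852). Lcn2 was 1.96-fold higher there (1.60 to 2.40), whereas in the overlap class its ratio was 0.480 (0.450 to 0.513). Transcription factors of the 2 lineages moved with the split in the overlap class: Irf8, a monocyte-lineage factor, was at 2.17 in monocyte-marker-high and 0.508 in monocyte-marker-low barcodes. Cebpe, which drives specific granule formation, was at 0.142 and 1.89, and Gfi1, a granulocyte factor, at 0.0798 and 0.470.

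Barcodes with a Cebpe UMI carried most of the specific granule transcripts of the overlap class. In the 117 of 287 with Cebpe, Camp was at 35.3 against 1.69 per 10000 in those without, 20.9-fold higher (18.6 to 23.6). Ngp was 12.2-fold (11.6 to 12.9), Ltf 8.38-fold (5.84 to 12.3) and Lcn2 3.09-fold (2.92 to 3.28) higher. The primary genes differed little by comparison, from a ratio of 0.790 (0.718 to 0.869) for Ctsg to 1.45 (1.35 to 1.55) for Mpo. The barcodes with Cebpe had the lower median depth, 6858 against 9192.5 UMIs.

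Mmp8, neutrophil collagenase (ENSMUSG00000005800, chr9:7558456-7568485), followed neither group. It was lowest in primary-only barcodes at 0.775 per 10000 (0.686 to 0.872), then 1.17 in overlap (1.04 to 1.31), 3.05 in specific-high (2.86 to 3.24) and 4.11 in specific-low barcodes (3.79 to 4.45). A UMI was found in 36.7%, 27.2%, 37.8% and 75.2% of them, at unequal depths. After thinning to 1000 UMIs the shares were 8.74%, 9.19%, 25.8% and 42.1%. In the specific-low class the mean of the barcodes' own values was 9.75 per 10000, and the pooled level without mixed barcodes was 8.10.

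Within the specific-high class Mmp8 sat with Retnlg, a marker of later neutrophils. In the 164 barcodes with a Retnlg UMI, Mmp8 was at 8.67 against 1.32 per 10000 in the 326 without, 6.58-fold higher (5.76 to 7.54). Ltf was 1.56-fold (1.49 to 1.63) and Lcn2 1.41-fold (1.36 to 1.45) higher, Ngp had a ratio of 1.06 (1.04 to 1.08), Camp 0.886 (0.853 to 0.919) and Elane 0.244 (0.0869 to 0.555). The median depth was 2375 UMIs with Retnlg and 3893.5 without. Cebpe split the class the other way: with Cebpe, Camp was 1.95-fold higher (1.87 to 2.03), Ltf differed little with a ratio of 1.03 (0.984 to 1.08), and Mmp8 had a ratio of 0.282 (0.248 to 0.321).

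**Figure D4:**
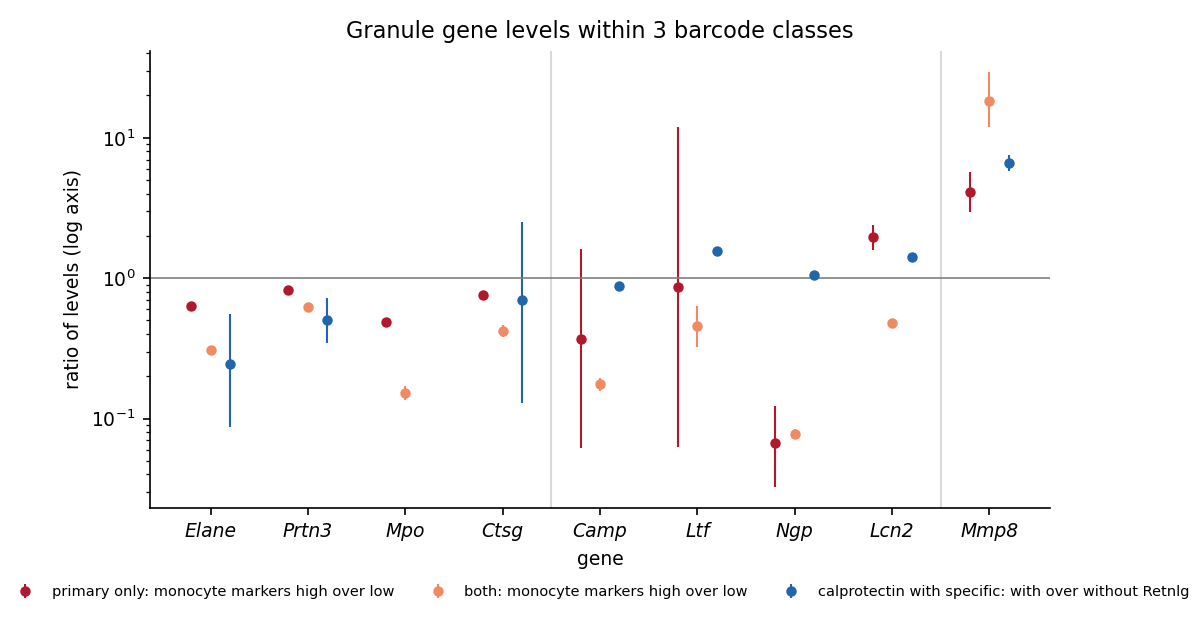
Ratio of each granule gene's level between subsets of 3 barcode classes, on a log axis with exact 95% intervals: monocyte-marker-high over -low barcodes of the primary-only and overlap classes, and barcodes with over without Retnlg of the specific-high class. Mmp8 is above 1 in all 3 splits (4.08, 18.3 and 6.58), and a ratio of 0 (Mpo with Retnlg) is not drawn.

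The specific-low class held markers of more than 1 cell type. Of its 165 barcodes 48 held Retnlg. These had Cxcr2 at 1.37, Mmp9 at 7.80 and F13a1 at 1.18 per 10000, while the 117 without had 0.341, 1.48 and 4.73. Mmp8 was at 5.10 with and 3.73 without Retnlg, a ratio of 1.37 (1.15 to 1.62). Prtn3 was at 0.241 and 2.68, a ratio of 0.0898 (0.0426 to 0.168), so the primary protease transcript in this class lay with the Retnlg-negative barcodes. Lcn2 was at 8.06 per 10000 with Retnlg, with a ratio of 1.15 (1.01 to 1.31), and Ltf had 0 and 3 UMIs. Monocyte-marker-high barcodes made up 47.9% of the class and held Mmp8 at 6.42 against 2.80 per 10000, a ratio of 2.29 (1.95 to 2.70).

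Across all genes, the primary-only barcodes were set against the calprotectin-high barcodes without primary genes (specific-high and specific-low together, 655). Of 8605 genes at 10 CPM (library-scaled counts) or more in either pool, the primary-only pool held 811 (9.42%) at 2-fold or more above the other pool and 962 (11.2%) at 2-fold or more below it. The median log2 ratio was 0.11. All 5 members that the 2 thresholds did not use were at least 2-fold lower, with log2 ratios of -10.63 for Ltf, -10.29 for Camp, -8.09 for Ngp, -5.13 for Lcn2 and -2.13 for Mmp8. The 4 primary genes were at least 2-fold higher, as the rule sets. With totals that leave out calprotectin and the 9 members the median log2 ratio was -0.09, and 29.2% of the genes past 2-fold were higher in the primary-only pool, against 45.7%. Without the mixed barcodes 2116 genes were at least 2-fold higher in the primary-only pool.

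Other granule genes were read from lists drawn up for this description. Of 13 other specific granule genes 11 were at least 2-fold lower in the primary-only pool and 0 higher, with a median log2 ratio of -3.002. Lyz2, lysozyme, had -1.37, Chil3, a chitinase-like lectin, -3.33, Wfdc21 -2.92 and Cyba, a subunit of the NADPH oxidase, -0.51, which did not reach 2-fold. Of 8 tested genes of gelatinase granules and secretory vesicles 7 were lower, with a median of -2.02. Retnlg had -9.53, Mmp9 (gelatinase B) -2.29 and Itgam (CD11b) -1.75, while Cfp, properdin, was at 0.10. Of 6 tested other primary granule genes 3 were higher and 0 lower, with a median of 1.15. Srgn, the proteoglycan that packs granule proteases, had 2.90, Ctsc, which activates those proteases, 1.65, Cd63 -0.98 and Serpinb1a, an elastase inhibitor, -0.74. Of 10 granulocyte transcription factors Myb (2.41) and Irf8 (1.61) were higher and Cebpe (-5.34) lower, and Cebpb (0.51), Cebpd (-0.56) and Spi1, which encodes PU.1 (0.11), were not 2-fold apart. The 11 of 13 and 7 of 8 stand against 11.2% of all genes tested. The 3 of 6 stand against 9.42%, and 6 genes are few. The 9.42% also moved with the barcodes kept. Of the genes past 2-fold, 69.9% were higher in the primary-only pool without mixed barcodes, against 45.7% as reported. The 2 of 10 transcription factors that were higher and the 1 of 10 lower stand against 9.42% and 11.2%, too few genes to set them apart from all genes.

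Among the genes with the highest ratios after the 4 primary members, Plac8 was 13.4-fold (12.5 to 14.4) and Hpgd 11.1-fold (7.28 to 17.5) higher in the primary-only pool, and Cst7, a cathepsin inhibitor, 16.7-fold (11.1 to 26.2). Prg2 ranked first of all, from 1 barcode. The stefin genes were at the other end, with 9 against 2408 UMIs for Stfa1, 3 against 766 for Stfa3 and 0 against 906 for Stfa2. Stfa1, Stfa2 and Stfa3 are near-identical copies whose reads the counting could have split.

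Likeness across the 1187 class barcodes was described by Pearson's r of log(1 + UMIs per 10000) among 8995 genes with a UMI in at least 5% of them. Barcodes of 1 library are no replicates, share its depth and carry the class rule, so r is a description. Elane was most like Prtn3 (0.79), Mpo (0.76), Ctsg (0.70), Ms4a3 (0.69), Plac8 (0.68) and Srgn (0.59). Ltf was most like Ngp (0.81), Camp (0.80), Lcn2 (0.75), Pglyrp1 (0.73), Anxa1 (0.68) and Syne1 (0.64). Mmp8 had weaker partners, none of them a member: Mmp9 (0.58), Ccl6 (0.56), Retnlg (0.55), Grina (0.51), S100a11 (0.42) and S100a6 (0.42).

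The other 15145 barcodes held few UMIs of most members. For 8 of the 9, between 94.4% (Prtn3) and 98.0% (Ngp) of all UMIs of the day-3 library lay in the class barcodes, but for Mmp8 12.1%. The rule chose the class barcodes on Elane, Prtn3, Mpo and Ctsg, so the share of these 4 is largely fixed by it. Macrophage-marker barcodes held 67.5% of the Mmp8 UMIs, 12254 of 18144. Their level of 2.58 per 10000 (2.53 to 2.62) lay between the overlap and specific-high levels, and 47.5% of the 7388 barcodes had a UMI. Mesenchymal-marker barcodes held Mmp8 at 0.0708, with a UMI in 7.95% at a median depth of 27685.

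Each gene was also counted per 100 calprotectin UMIs. The class barcodes that give the reference were chosen on calprotectin and on the primary genes, so the rule enters these ratios and they are a description. In macrophage-marker barcodes the other 8 members stood at 0.606 (Ngp) to 1.92 (Prtn3) times their ratio in the class barcodes. The intervals for Prtn3 (1.76 to 2.08) and Lcn2 (1.01 to 1.25) lay above 1. Those for Ngp (0.554 to 0.663), Elane (0.617 to 0.952) and Camp (0.682 to 0.913) lay below it. The intervals for Mpo, Ctsg and Ltf held 1. Mmp8 stood at 140 UMIs per 100 calprotectin UMIs against 0.292 in the class barcodes, 479-fold higher (457 to 501). In mesenchymal-marker barcodes the 8 ranged from 0.845 (Ngp) to 1.68 (Mpo), and Mmp8 was 39.2-fold higher (35.7 to 43.0). Whether the UMIs of these genes in other barcodes came from free RNA was not tested. Within the macrophage-marker barcodes Mmp8 was 1.89-fold higher (1.80 to 1.98) in the 530 with a UMI of Ly6c2, a monocyte gene. It had a ratio of 0.584 (0.563 to 0.606) in the 5191 with C1qa, a complement gene of resident macrophages. The Mmp8 ratio was 1.85 (1.75 to 1.95) with Csf3r, a receptor of neutrophils, and 1.27 (1.22 to 1.33) with the monocyte marker Ccr2. It was 1.19 with S100a8, 1.12 with Arg1 and 1.04 (0.994 to 1.08) with Mrc1. Prtn3 was 12.1-fold higher (10.2 to 14.3) with Ly6c2, at 0.722 against 0.0597 per 10000. Lcn2 was 3.20-fold higher (2.47 to 4.10) with Ly6c2. With Csf3r, Lcn2 was 2.04-fold (1.48 to 2.76) and Prtn3 2.16-fold (1.69 to 2.73) higher. The other 6 members were not split in these barcodes.

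**Figure D5:**
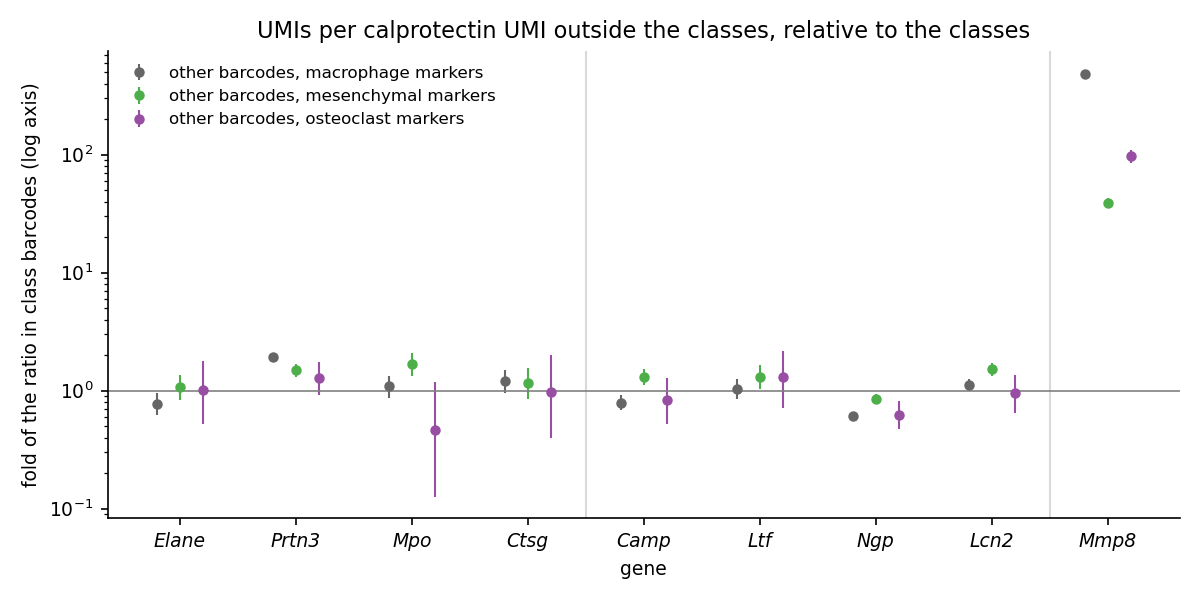
UMIs of each granule gene per calprotectin UMI in other barcodes of the day-3 library, divided by the same ratio in the class barcodes, on a log axis with exact conditional binomial 95% intervals. For 8 genes the points of the macrophage-marker barcodes lie between 0.606 and 1.92, and Mmp8 lies at 479.

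In the uninjured library the 9 genes were read in 11 class barcodes. Its 6 specific-high barcodes held between 32 and 226 Ngp UMIs and between 3 and 34 Ltf UMIs each, and no Elane UMI. The 3 overlap barcodes differed: 1 had 246 Camp, 236 Ngp and 2 Ltf UMIs with 11 of Elane, and the others had 49 and 11 Elane UMIs and no Camp or Ltf. Mmp8 had at most 3 UMIs in 10 of the 11 and 10 UMIs in 1 specific-high barcode. Between libraries, Mmp8 in macrophage-marker barcodes was at 2.58 per 10000 at day 3 and 0.102 in the uninjured library, 25.3-fold apart (21.4 to 30.1), with 7388 and 1262 barcodes. The day-3 library also held more calprotectin in those barcodes, at 6.91-fold for S100a8 and 23.8-fold for S100a9, and with 1 library of each the injury and the library cannot be told apart.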

How the data were processed

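The deposited files hold UMI counts per gene and barcode (whole numbers, not normalized) for 2 libraries of 4573 and 16332 barcodes. Per the submitters' processing notes the authors used Cell Ranger, Seurat 4.0.1 and the mm10 build, per the labels' protocols the libraries came from a 10x Chromium 3′ kit, and the matrix headers carry software version 3.1.0. The aligner settings and cell calling are not given in the sources used here. All deposited barcodes were kept, since filters were tried as alternatives.

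Counts were summed over the barcodes of a class and divided by their total, times 10000. Levels carry exact Poisson, shares exact Clopper-Pearson and ratios exact conditional binomial 95% intervals (scipy 1.17.1, Python 3.11.15). PCR duplicates are collapsed by UMI, and all intervals cover counting error only. Other barcodes were assigned to macrophage, mesenchymal or osteoclast markers by fixed minimums, and 3 counts were taken as the limit that a count of 0 allows. With 1 library per condition there was no test. Genes at 10 CPM or more in either pool were called at 2-fold. On simulated pools of 31055 genes with 200 changed 4-fold, 100% of the changed genes were recovered in each direction. The simulated counts held counting error only, without spread between barcodes or mixed barcodes, so this checks the calculation and not the calls in these data. Scrublet (scanpy 1.11.5) gave each barcode a doublet score, and its automatic threshold marked 299 day-3 barcodes; none were removed in the reported values.

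The members and lists were chosen with earlier results of these data known. Named genes were the 9 members, calprotectin, up to 4 genes of highest level per list, the 6 most like Elane, Ltf and Mmp8, and the 8 highest and 8 lowest ratios at 50 CPM or more. Myb, Irf8, Gfi1 and the genes used to split classes were named after their values were seen. Alternatives were cell filters, Scrublet, other thresholds, scalings and minimums, thinning, and leaving out mixed or monocyte-marker-high barcodes. Promoters were matched by symbol for 9 of 9 members.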

Additional observations from a re-analysis of the deposited data

How the results depend on the processing

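Each of the 9 members was highest in the same class under most alternatives, and 8 of 9 were with the highest Scrublet scores removed, with mixed barcodes left out or after thinning, where Prtn3 was highest in primary-only barcodes. The log2 ratios of Camp, Ltf, Ngp, Lcn2 and Mmp8 were negative under all 12 alternatives, and none of the values reversed. Leaving out mixed barcodes gave 153 primary-only and 86 specific-low barcodes, leaving out monocyte-marker-high barcodes gave 96, 178 overlap and 86, and doubled thresholds gave 190 overlap barcodes. Genes higher in the primary-only pool numbered 1714 with Scrublet, 2116 without mixed barcodes, 396 at a minimum of 50 CPM and 1267 with no minimum, against 811. Genes lower numbered 313 and 1728 at those last minimums, against 962. Fewer genes were tested at the higher minimum (3431) and more with none (15547). The Mmp8 ratio between monocyte-marker-high and -low overlap barcodes was 44.2 with Scrublet and 42.3 without mixed barcodes, and that between barcodes with and without Retnlg was 8.84 without mixed barcodes. In macrophage-marker barcodes Mmp8 was at 2.63 per 10000 with Scrublet, and its fold of the class ratio to calprotectin was 491 with the cell filter, 554 with Scrublet and 509 with stricter other barcodes. Except for the minimums, the cause was not tested. Of the 150 other recomputed values 67 moved by less than their interval. The depth of 3101 UMIs per specific-high barcode limits what a missing UMI says.

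No paired analysis was possible because each condition had 1 library, and leaving out a replicate was not possible for the same reason.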

Other observations

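Granule gene UMIs in the 2015 mesenchymal-marker barcodes of the uninjured library did not keep the ratios of the day-3 class barcodes. Camp had 182 UMIs in 146 barcodes (7.25%; 6.15 to 8.47), Prtn3 122 in 112 (5.56%), Lcn2 132 in 87 (4.32%) and Ngp 30 in 30 (1.49%), beside 346 calprotectin UMIs. Per calprotectin UMI, Camp stood 19.3-fold (16.6 to 22.3), Lcn2 10.7-fold (8.99 to 12.8) and Prtn3 10.4-fold (8.62 to 12.4) above the day-3 class ratio. Ngp stood at 0.944 (0.637 to 1.35) times that ratio. The 11 class barcodes of the uninjured library held 729 Camp, 353 Lcn2, 104 Prtn3 and 1049 Ngp UMIs. They held 4767 S100a8 and 3548 S100a9 UMIs, so their ratios differ and the folds hold for the day-3 reference only. In the mesenchymal-marker barcodes of the day-3 library the folds of the day-3 class ratio were 1.30 for Camp, 1.52 for Lcn2 and 1.49 for Prtn3. No single barcode held more than 6 Camp, 4 Prtn3 or 8 Lcn2 UMIs.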
